A study of Mus musculus with 6 samples.

Results

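The genes described here are 9 of the 24982 listed in every library, and they encode enzymes that break down NAD at the cell surface, rebuild it from salvaged precursors, or use nicotinamide and NAD inside the cell. They are *Bst1*, *Cd38*, *Nt5e*, *Nampt*, *Nmnat1*, *Nmrk1*, *Naprt*, *Nnmt* and *Sirt1*. The group was selected on a measured value of the comparison reported here, the far lower *Bst1* coverage in DKSFM libraries, and the other 8 genes were added for their roles. The *Bst1* difference is therefore given as a description, with no test.

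RNA-seq libraries of keratinocytes from C57BL/6 neonatal skin were compared, 3 of the KSFM-Ca2+ cells and 3 of the DKSFM cells. KSFM-Ca2+ cells are a long-term line raised and kept in a serum-free keratinocyte medium low in calcium, and DKSFM cells are their descendants, which were adapted to a defined keratinocyte medium that contains more calcium. Neither group was treated, and no engineered genetic change is named for either. By the study's account, lines kept long in KSFM-Ca2+ medium carry more chromosomes than a diploid cell, and gene copy number was not measured in the libraries used here. The medium and the history of adaptation differ together between the lines, so they cannot be told apart, and since the sources used here do not say what a replicate was, p-values measure the spread between these libraries, which may be technical.

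The measured quantity is the mean read coverage per base of each gene, listed to 1 decimal. Summed over genes, it was 1601676, 1238411 and 1057750 in KSFM-Ca2+ replicates 1, 2 and 3, and 1174348, 1239438 and 1170675 in DKSFM replicates 1, 2 and 3. Coverage was scaled between libraries, and this normalized coverage is already per length, so that levels can be set side by side between genes. Fold changes are differences of log2(normalized coverage + 0.1), DKSFM minus KSFM-Ca2+, a scale that understates the change of genes with low coverage. A gene was tested if 3 or more libraries reached 0.5 on this normalized scale, and a gene is said to have risen or fallen if its adjusted p in limma was under 0.01.

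Cells make most of their NAD by recycling nicotinamide, which NAMPT turns into nicotinamide mononucleotide and NMNAT enzymes then turn into NAD. Nicotinamide riboside enters the same route through NMRK kinases, and nicotinic acid enters by a route of its own through NAPRT. In skin, NAD supplies the energy metabolism of keratinocytes, their sirtuins and the poly(ADP-ribose) polymerases that respond to DNA damage by ultraviolet light.

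*Bst1* (chr5:43818885-43843986, plus strand, GRCm38) encodes BST1, also called CD157, a surface enzyme known from bone marrow stroma and myeloid cells that splits nicotinamide from its substrates and is related to CD38. Its listed coverage was 194.6, 153.9 and 131.2 in the KSFM-Ca2+ libraries and 2.4, 2.8 and 2.7 in the DKSFM libraries. Its normalized coverage was 150, 154 and 156 in KSFM-Ca2+ replicates 1, 2 and 3, and 2.57, 2.82 and 2.89 in DKSFM replicates 1, 2 and 3. The libraries of each line lay close together, and every DKSFM library was far under every KSFM-Ca2+ library. The means were 153 ± 3.30 (SD, n = 3) in KSFM-Ca2+ cells and 2.76 ± 0.168 (SD, n = 3) in DKSFM cells, a ratio of 55.5 and a log2 fold change of -5.74. *Bst1* coverage was above that of 87.0% of the 12450 tested genes in KSFM-Ca2+ cells and above that of 15.3% in DKSFM cells. By size of the fall it held place 45 among the tested genes. In bulk libraries fewer cells that contain a transcript and less of it per cell cannot be told apart, and this holds for each gene below.

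The annotated *Bst1* gene overlaps *Fbxl5*, on the opposite strand, by 2754 bases. By the study's methods the libraries were directional and the alignment used a strand setting. Whether the coverage of each gene also kept to strand is not given in the sources used here, so reads from the shared bases could count for either gene. *Fbxl5* was listed at 120.5, 90.9 and 72.8 in the KSFM-Ca2+ libraries, against 140.5, 157.9 and 143.1 in the DKSFM libraries, and it was thus well covered in both lines while *Bst1* was low in DKSFM cells.

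*Cd38* (chr5:43868553-43912375, plus strand, GRCm38) starts 24567 bases beyond the end of *Bst1* and encodes the related NAD glycohydrolase, which is known from lymphocytes and other blood cells. It was listed at 0 in each of the 6 libraries. A step of 0.1 in coverage corresponds to about 2.44 reads of 85 bases over the median length of its annotated transcripts, and coverage below this step may be listed as 0. No fold change or test can be given for *Cd38*.

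**Figure D1:**
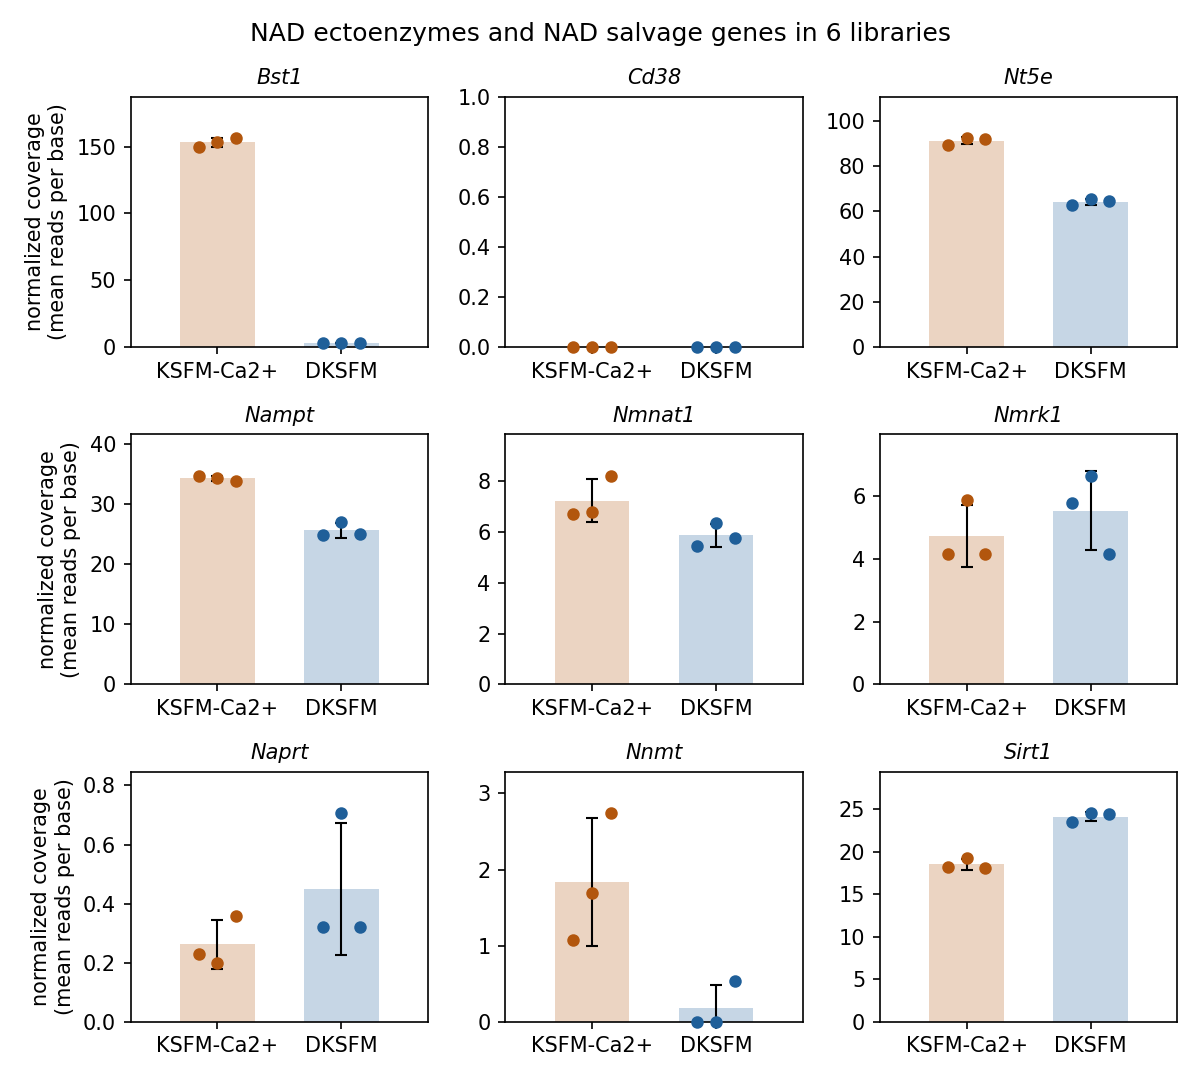
Normalized coverage (mean reads per base) of the 9 genes, with a panel for each gene and its own axis from 0; dots are the 3 libraries of each line, pale bars the means and black bars the SD. *Bst1* stood at 150 to 156 in KSFM-Ca2+ and at 2.57 to 2.89 in DKSFM libraries, while *Cd38* was listed at 0 in all 6.

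The genes around *Bst1* were described to see whether its neighbourhood shared its low coverage in DKSFM cells. Of the 10 other listed genes whose annotated start lies within 1 Mb of that of *Bst1*, 5 were tested, and all 5 rose in DKSFM cells in limma, where 35.5% of the 12450 tested genes rose. *Cpeb2*, which encodes an RNA-binding regulator of translation, went from a mean normalized coverage of 11.7 to 40.5 (log2 fold change 1.78, SE 0.0769, limma adjusted p = 1.89e-07). *Cc2d2a*, a gene of the ciliary transition zone, went from 8.79 to 19.4 (1.14, SE 0.0914, limma adjusted p = 7.19e-06). *Fbxl5*, which encodes a sensor of cellular iron, went from 90.1 to 154 (0.78, SE 0.0370, limma adjusted p = 3.28e-07).

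On the other side of *Bst1*, *Fgfbp1*, which encodes a carrier of fibroblast growth factors, went from 1403 to 2817 (log2 fold change 1.01, SE 0.0247, limma adjusted p = 1.09e-08). *Tapt1* went from 29.7 to 39.7 (0.42, SE 0.0488, limma adjusted p = 6.91e-05). Over the 77 other tested genes within 10 Mb on either side, the median log2 fold change was 0.06, and over the 808 others of chromosome 5 it was 0.08.

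**Figure D2:**
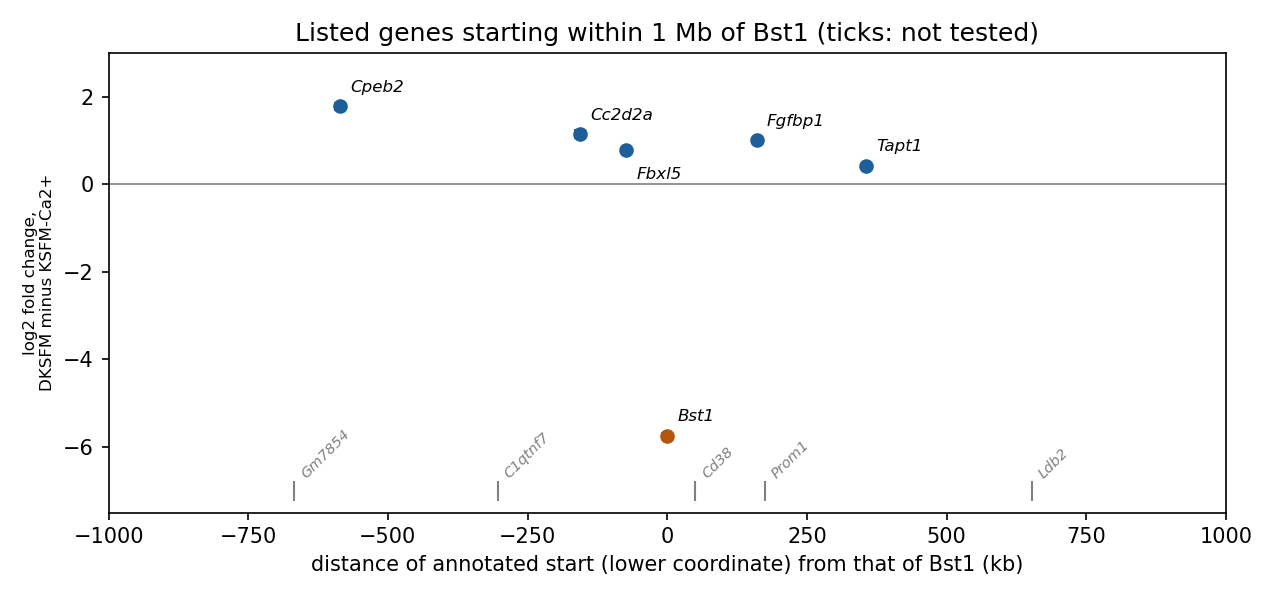
Log2 fold change (DKSFM minus KSFM-Ca2+) of genes against the distance of their annotated start from that of *Bst1*, in kb, with SE bars that are mostly smaller than the dots; grey ticks mark listed genes that were not tested. The 5 tested neighbours lie between 0.42 and 1.78, and *Bst1* lies at -5.74.

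Since *Bst1* and *Cd38* are known from blood cells and stroma, markers of such cells were read in each library. Of 8 leukocyte markers, 2 (*Cd3e* and *Tyrobp*) were listed at 0 in every library, and 6 were at or under 0.1 in every library. Their summed normalized coverage was 1.38 to 2.26 in the KSFM-Ca2+ libraries and 0.504 to 0.965 in the DKSFM libraries, with *Cd74* the most abundant. *Cd74* alone stood at 1.23, 1.50 and 1.91 in the KSFM-Ca2+ libraries and was listed at 0 in the DKSFM libraries. *Fcer1g*, which encodes the shared chain of Fc receptors, went the other way, at 0.0769, 0.0998 and 0.238 in the KSFM-Ca2+ libraries and 0.857, 0.303 and 0.642 in the DKSFM libraries. *Ptprc*, the pan-leukocyte marker CD45, was at or under 0.1 in the libraries of both lines.

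Of 7 fibroblast markers, 6 were listed at 0 in every library, collagen genes included, and the exception, *Pdgfra*, stood at 1.15, 0.898 and 1.31 in KSFM-Ca2+ and at 2.36, 2.12 and 2.25 in DKSFM libraries. Of 4 endothelial markers, *Cdh5* was at 0 throughout, and the sum, led by *Pecam1*, was 2.85, 3.19 and 3.34 in KSFM-Ca2+ and 8.36, 8.37 and 7.49 in DKSFM libraries. Of 5 melanocyte markers, *Tyr* and *Dct* were at 0 throughout, and the sum, led by *Mitf*, was 3.99 to 4.65 in KSFM-Ca2+ and 17.5 to 18.8 in DKSFM libraries. The sum of 9 keratinocyte markers, led by *Krt14*, was 21029, 21374 and 20969 in KSFM-Ca2+ and 50367, 46619 and 50852 in DKSFM libraries, so markers of the labelled cell type were abundant in every library. The sums rest largely on their leading genes. *Itgb4*, an integrin gene of keratinocytes, went the other way, from a mean of 324 to 194. *Dsg3*, also of the keratinocyte markers, had means of 209 in KSFM-Ca2+ and 200 in DKSFM cells, overlapped between the lines and did not pass (limma adjusted p = 0.284). *Tek*, of the endothelial markers, had means of 0.264 and 0.212, and *Mlana*, of the melanocyte markers, 0.0665 and 0. Neither was tested. *Pmel*, a pigment cell gene, had means of 0.599 in KSFM-Ca2+ and 0.347 in DKSFM cells. Its libraries overlapped between the lines, and it did not pass (limma adjusted p = 0.101). The leukocyte sum was lower in DKSFM libraries, as *Bst1* was, and the fibroblast, endothelial, melanocyte and keratinocyte sums were higher there. The part of these markers in the differences between the lines was not tested.

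The genes whose pattern over the 6 libraries was most like that of *Bst1* were sought among 8470 genes with a mean normalized coverage of at least 10 in KSFM-Ca2+ cells. Likeness was the Euclidean distance between log2(normalized coverage + 0.1) values after the mean of each gene was taken off. The nearest 5 were *Il23a*, a cytokine subunit gene (distance 0.254), *Aspa*, the aspartoacylase gene (0.448), *Cxcl2*, a chemokine gene (0.476), *Ripk3*, a kinase gene of necroptosis (0.506), and *Prl8a1*, of the prolactin family (0.563). Each was chosen for its difference between the lines, so no test is given for them.

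*Il23a* was listed at 11.7, 10.3 and 9.2 in the KSFM-Ca2+ libraries and at 0.1 in each DKSFM library. *Cxcl2* was listed at 54.3, 47.7 and 48.7 against 0.5, 0.8 and 0.7. *Aspa* was listed at 53, 43.8 and 43.2 against 0.5, 0.9 and 0.8. All 5 had a mean normalized coverage from 0.105 to 0.767 in DKSFM cells, while *Bst1* kept a mean of 2.76 there. At such levels the likeness depends on the pseudocount: with a pseudocount of 1 the log2 fold change was -3.32 for *Il23a*, -4.32 for *Prl8a1* and -4.88 for *Cxcl2*, against -5.36 for *Bst1*.

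**Figure D3:**
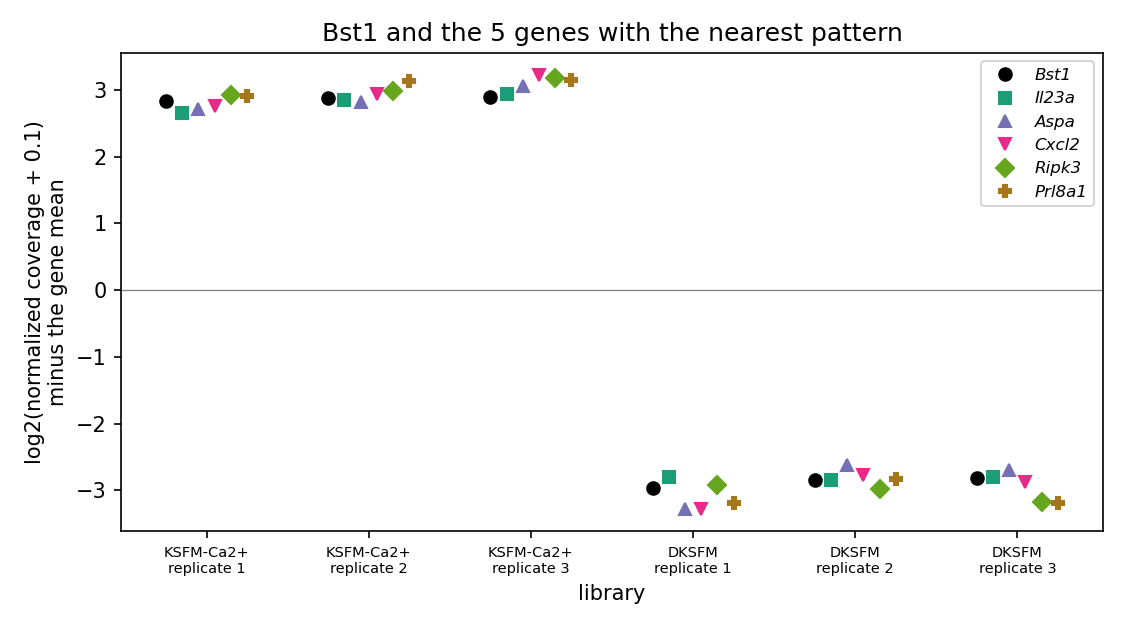
Log2(normalized coverage + 0.1) minus the mean of the gene, for *Bst1* and the 5 genes nearest to it, in each of the 6 libraries; points of a library are set side by side for legibility. All 6 genes lie above 0 in every KSFM-Ca2+ library and under 0 in every DKSFM library.

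Of the 8 genes other than *Bst1*, 6 passed the filter on low coverage, and *Cd38* and *Naprt* did not. Of the 6, 1 rose (35.5% of the 12450 tested genes rose) and 3 fell (37.0% of the tested genes fell). Without *Nnmt*, which was under the filter level in DKSFM replicates 1 and 2, 1 rose and 2 fell of 5. None was at least 2-fold higher (13.3% of the tested genes were) and 1 was at least 2-fold lower (10.5% of the tested genes were). The libraries of the lines did not overlap for 5 of the 6 (83.2% of the tested genes did not overlap). Because the genes were gathered with values of this contrast known, nothing is read from these counts.

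Promoter sequences from 250 bases before to 50 bases after a start were taken from a set of RefSeq promoters (GRCm38.p6). In the set used here, 6 of the 9 genes had an entry, and *Bst1*, *Naprt* and *Nnmt* had none. The promoters shown are those of *Cd38*, listed at 0, and of *Nt5e* and *Nampt*, the genes with the highest coverage among those with an entry, which both fell. They are chr5:43868559-43868858 (plus strand), chr9:88327359-88327658 (plus strand) and chr12:32820085-32820384 (plus strand). They are written 5′ to 3′, and capitals mark each CG dinucleotide, which reads the same on both strands.
Cd38: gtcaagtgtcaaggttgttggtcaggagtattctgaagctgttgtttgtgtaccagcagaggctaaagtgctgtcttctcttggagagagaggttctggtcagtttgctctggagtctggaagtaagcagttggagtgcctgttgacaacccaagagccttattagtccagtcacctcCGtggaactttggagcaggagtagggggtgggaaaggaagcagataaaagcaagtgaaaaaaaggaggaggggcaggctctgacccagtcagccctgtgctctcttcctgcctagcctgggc
Nt5e: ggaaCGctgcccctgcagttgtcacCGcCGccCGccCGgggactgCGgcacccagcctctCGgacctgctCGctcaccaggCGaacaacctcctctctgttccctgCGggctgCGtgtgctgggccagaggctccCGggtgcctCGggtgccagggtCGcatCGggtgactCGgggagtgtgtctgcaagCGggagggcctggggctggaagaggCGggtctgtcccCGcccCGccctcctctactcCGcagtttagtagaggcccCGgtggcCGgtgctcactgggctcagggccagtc
Nampt: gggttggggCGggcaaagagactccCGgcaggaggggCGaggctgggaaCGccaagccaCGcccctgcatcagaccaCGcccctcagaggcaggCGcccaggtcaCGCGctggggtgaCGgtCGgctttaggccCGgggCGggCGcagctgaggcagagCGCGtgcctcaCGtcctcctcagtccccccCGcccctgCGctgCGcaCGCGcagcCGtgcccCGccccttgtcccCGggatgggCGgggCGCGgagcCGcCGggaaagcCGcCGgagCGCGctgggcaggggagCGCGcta
The *Cd38* window holds 1 CG, the *Nt5e* window 23 and the *Nampt* window 36. Of 32851 promoter windows of this length, 94.6% hold at least 1, and the median is 7. The share of windows with fewer CG was 5.43% for *Cd38*, 78.5% for *Nt5e* and 93.8% for *Nampt*. The windows of *Nmrk1* (23), *Nmnat1* (28 at each of its annotated starts) and *Sirt1* (47) were also above the median, whatever the direction of the difference between the lines.

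*Nt5e* (chr9:88327197-88372092, plus strand, GRCm38) encodes CD73, the surface 5′-nucleotidase that turns AMP into adenosine and can also act on nicotinamide mononucleotide. Its normalized coverage was 89.4, 92.4 and 92.3 in KSFM-Ca2+ replicates 1, 2 and 3, and 62.8, 65.4 and 64.4 in DKSFM replicates 1, 2 and 3. Every DKSFM library was under every KSFM-Ca2+ library, and the gap was many times the spread within a line. The means were 91.4 ± 1.72 and 64.2 ± 1.30 (SD, n = 3 each), and *Nt5e* fell with a log2 fold change of -0.51 (95% interval -0.58 to -0.43, limma adjusted p = 1.75e-06). Among the 59 other tested genes within 10 Mb, the median log2 fold change was -0.39, and the part of this chromosomal region in the *Nt5e* difference was not tested.

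*Nampt* (chr12:32819545-32853349, plus strand, GRCm38) encodes the rate-limiting enzyme of nicotinamide salvage. Its normalized coverage was 34.8, 34.4 and 33.9 in the KSFM-Ca2+ libraries and 24.9, 27.1 and 25.1 in the DKSFM libraries. The lines did not overlap, and DKSFM replicate 2 lay nearest to the KSFM-Ca2+ values. The means were 34.4 ± 0.417 and 25.7 ± 1.24 (SD, n = 3 each), and *Nampt* fell with a log2 fold change of -0.42 (95% interval -0.53 to -0.31, limma adjusted p = 5.36e-05). The 45 other tested genes within 10 Mb had a median of 0.27, of the opposite sign. *Gdap10*, which overlaps it on the same strand, was listed at no more than 0.2 in any library.

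*Nmnat1* (chr4:149467572-149485202, minus strand, GRCm38) encodes the nuclear enzyme of the final step to NAD. Its normalized coverage was 6.69, 6.79 and 8.22 in the KSFM-Ca2+ libraries and 5.47, 6.36 and 5.78 in the DKSFM libraries. The DKSFM libraries were all lower, but KSFM-Ca2+ replicates 1 and 2 lay close to DKSFM replicate 2. The log2 fold change was -0.29 (95% interval -0.54 to -0.05) and did not pass the threshold (limma adjusted p = 0.0296). With quantile normalization it was -0.42 and passed (limma adjusted p = 0.00627). The 149 other tested genes within 10 Mb had a median of 0.12.

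*Nmrk1* (chr19:18631950-18652428, plus strand, GRCm38) encodes the kinase that brings nicotinamide riboside into NAD synthesis. Its normalized coverage was 4.15, 5.89 and 4.17 in the KSFM-Ca2+ libraries and 5.79, 6.66 and 4.17 in the DKSFM libraries. The lines overlapped, with KSFM-Ca2+ replicate 2 high and DKSFM replicate 3 low for their lines. The log2 fold change was 0.21 (95% interval -0.24 to 0.67, limma adjusted p = 0.337) and did not pass, with an interval that holds differences in both directions. Its size depended on single libraries. It was 0.08 without DKSFM replicate 2, 0.40 without DKSFM replicate 3 and 0.38 without KSFM-Ca2+ replicate 2. With quantile normalization it was 0.06, and none of these values passed.

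*Naprt* (chr15:75890956-75894481, minus strand, GRCm38) encodes the enzyme that starts NAD synthesis from nicotinic acid. It was listed at 0.3, 0.2 and 0.3 in the KSFM-Ca2+ libraries, against 0.3, 0.7 and 0.3 in the DKSFM libraries. All but DKSFM replicate 2 were within a few rounding steps of 0, the lines overlapped, and the gene was not tested. It shares 277 annotated bases on the same strand with *Eef1d*, a translation factor gene listed at 820.9 or more in every library, so some of this coverage could belong to either gene.

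*Nnmt* (chr9:48591877-48605153, minus strand, GRCm38) encodes the enzyme that methylates nicotinamide and so takes it out of salvage. It was listed at 1.4, 1.7 and 2.3 in the KSFM-Ca2+ libraries, against 0, 0 and 0.5 in the DKSFM libraries. The KSFM-Ca2+ libraries were enough for it to pass the filter. DKSFM replicate 3 also reached the filter (0.535 normalized), while DKSFM replicates 1 and 2 were at 0. The spread within each line was wide beside the low level. The normalized means were 1.84 ± 0.840 in KSFM-Ca2+ cells and 0.178 ± 0.309 in DKSFM cells (SD, n = 3 each), with a log2 fold change of -3.30 (95% interval -4.96 to -1.63, limma adjusted p = 0.00292).

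With a pseudocount of 0.5 the log2 fold change of *Nnmt* was -1.81, and with a pseudocount of 1 it was -1.26, both past the threshold. The call was lost without the intensity trend (limma adjusted p = 0.0114). It was also lost without KSFM-Ca2+ replicate 2 (-3.30, limma adjusted p = 0.0103) or replicate 3 (-3.00, adjusted p = 0.0160), and without DKSFM replicate 1 (-2.85, adjusted p = 0.0134) or replicate 2 (-2.85, adjusted p = 0.0176). The 139 other tested genes within 10 Mb had a median of -0.35, and the part of this region was not tested.

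*Sirt1* (chr10:63319005-63381704, minus strand, GRCm38) encodes an NAD-dependent deacetylase of histones and transcription factors, which releases nicotinamide as it works. Its normalized coverage was 18.2, 19.3 and 18.1 in the KSFM-Ca2+ libraries and 23.5, 24.5 and 24.4 in the DKSFM libraries. Every DKSFM library was above every KSFM-Ca2+ library. The means were 18.5 ± 0.656 and 24.1 ± 0.572 (SD, n = 3 each), and *Sirt1* rose with a log2 fold change of 0.38 (95% interval 0.27 to 0.49, limma adjusted p = 1.17e-04). The 72 other tested genes within 10 Mb had a median of 0.31, and the part of this region in the *Sirt1* difference was not tested.

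Set in order of mean normalized coverage in KSFM-Ca2+ cells, the genes ran *Bst1* (153), *Nt5e* (91.4), *Nampt* (34.4), *Sirt1* (18.5), *Nmnat1* (7.23), *Nmrk1* (4.74), *Nnmt* (1.84), *Naprt* (0.263) and *Cd38* (0). No neighbours in this order overlapped between libraries. In DKSFM cells the order was *Nt5e* (64.2), *Nampt* (25.7), *Sirt1* (24.1), *Nmnat1* (5.87), *Nmrk1* (5.54), *Bst1* (2.76), *Naprt* (0.450), *Nnmt* (0.178) and *Cd38* (0). There, *Nmnat1* and *Nmrk1* overlapped between libraries, as did *Naprt* and *Nnmt*, *Nnmt* shared values of 0 with *Cd38*, and *Nampt* and *Sirt1* were close but did not overlap. *Bst1* went from the top of the order to its lower part, and *Nt5e* was the most covered gene of the group in DKSFM cells.

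A wider set of 84 listed genes that make, move, use or follow NAD was then described, outside the 9 genes. Of these, 18 were listed at 0 in every library and 51 were tested, of which 16 rose (31.4%, beside 35.5% of all 12450 tested genes), 26 fell (51.0%, beside 37.0%) and 9 did not pass the threshold. The median log2 fold change of the 51 was -0.19, beside 0.000153 over all tested genes. At 2-fold, 4 were higher (7.84%, beside 13.3% of all tested genes) and 9 lower (17.6%, beside 10.5%). Some genes passed the filter through the line where they are high: 6 of the 51 were under 0.5 in at least 1 library, and without them 13 rose and 23 fell of 45, beside 34.1% and 38.2% of the 11124 tested genes left by the same restriction. At 2-fold, 1 of the 45 was then higher and 6 were lower, beside 9.27% and 8.61% of those 11124. The PARP family described below, with 16 of the 51 tested genes, gave 13 of the 26 that fell and 1 of those that rose. The wider set was written with earlier results of these data known, so nothing is read from these counts.

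Synthesis of NAD from tryptophan was little covered. Of 9 genes for this route, 8 were at or under 0.1 in every library, the pathway's *Qprt*, *Kmo* and *Haao* among them. The exception, *Afmid*, encodes a formamidase and fell from 7.71 ± 0.953 to 4.58 ± 0.942 (SD, n = 3 each; log2 fold change -0.75, limma adjusted p = 0.00278). The *Afmid* call was lost without KSFM-Ca2+ replicate 2 (-0.71, limma adjusted p = 0.0119), without KSFM-Ca2+ replicate 3 (-0.69, adjusted p = 0.0139), without DKSFM replicate 2 (-0.80, adjusted p = 0.0103) and with combined libraries alone (-0.87, adjusted p = 0.0114).

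Of 4 other enzymes of NAD synthesis, *Nmnat2* was not tested and *Nmrk2* was listed at 0. *Nmnat3*, a relative of *Nmnat1* placed in mitochondria, stood at 14.9, 19.1 and 13.0 in the KSFM-Ca2+ libraries, against 28.3, 28.0 and 26.9 in the DKSFM libraries. It did not overlap between the lines and rose with a log2 fold change of 0.84 (SE 0.124, limma adjusted p = 3.03e-04). *Nadsyn1*, which completes NAD from the nicotinic acid route, had a log2 fold change of 0.37 that did not pass (limma adjusted p = 0.0169), although it passed without DKSFM replicate 2 (0.48, adjusted p = 0.00835).

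Among 4 genes that phosphorylate, reduce or carry NAD, *Slc25a51*, the mitochondrial NAD carrier, rose from 32.7 ± 1.15 to 56.5 ± 2.89 (SD, n = 3 each; log2 fold change 0.79, limma adjusted p = 1.52e-06). *Nnt*, the mitochondrial transhydrogenase, fell from 16.8 ± 0.599 to 9.21 ± 0.921 (-0.86, limma adjusted p = 1.69e-05). The NAD kinases did not pass, with *Nadk* at -0.15 (limma adjusted p = 0.0200) and *Nadk2* at 0.22 (adjusted p = 0.0458). *Nadk2* passed without DKSFM replicate 3 (0.32, limma adjusted p = 0.00360), and *Nadk* passed with combined libraries alone (-0.24, adjusted p = 0.00935).

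The 6 sirtuins other than *Sirt1* went in both directions, with 3 higher, 2 lower and 1 not past the threshold, beside 35.5% of all tested genes higher and 37.0% lower. *Sirt2*, the most covered, rose from 142 ± 4.98 to 202 ± 3.41 (SD, n = 3 each; log2 fold change 0.51, limma adjusted p = 2.06e-06). *Sirt7* rose by a log2 fold change of 0.39 (limma adjusted p = 6.39e-06), close to the 0.38 of *Sirt1*. Of the mitochondrial sirtuins, *Sirt3* (-0.53, limma adjusted p = 0.00122) and *Sirt5* (-0.66, adjusted p = 5.28e-04) fell, and *Sirt4* was at 0.42 and did not pass (adjusted p = 0.0258).

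*Sirt6*, a nuclear sirtuin, rose by 0.22 (limma adjusted p = 0.00793). The *Sirt6* call was lost without KSFM-Ca2+ replicate 2 (0.19, limma adjusted p = 0.0323) or replicate 3 (0.21, adjusted p = 0.0253), and without DKSFM replicate 1 (0.23, adjusted p = 0.0186), replicate 2 (0.19, adjusted p = 0.0254) or replicate 3 (0.25, adjusted p = 0.0105). It was also lost with library totals (0.21, limma adjusted p = 0.0137), quantile normalization (0.14, adjusted p = 0.0504), no filter (adjusted p = 0.0101), no intensity trend (adjusted p = 0.0108) and combined libraries alone (0.25, adjusted p = 0.0275). *Sirt4* passed without DKSFM replicate 3 (0.56, limma adjusted p = 0.00459).

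All 16 genes of the PARP family, most of which encode enzymes that spend NAD on ADP-ribosylation (the product of *Zc3hav1* is known as inactive), were tested, and 13 fell, 1 rose and 2 did not pass, where 37.0% of all tested genes fell and 35.5% rose. The median log2 fold change was -0.56. *Parp1*, which carries out most poly(ADP-ribosyl)ation after DNA damage, stood at 81.0, 79.9 and 79.4 in the KSFM-Ca2+ libraries, against 42.1, 38.7 and 42.3 in the DKSFM libraries. Its lines lay far apart beside their spread, and it fell with a log2 fold change of -0.96 (SE 0.0424, limma adjusted p = 2.10e-07). *Tnks2*, a tankyrase, fell from 94.2 ± 2.26 to 70.7 ± 0.461 (-0.41, limma adjusted p = 5.03e-06).

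The PARP genes that fell by at least 2-fold were *Parp9* (log2 fold change -1.16, limma adjusted p = 1.76e-05), *Parp14* (-3.00, adjusted p = 6.07e-06), *Tnks* (-1.10, adjusted p = 1.06e-05) and *Parp16*. *Parp16* went from a mean of 3.54 to 1.72 (limma adjusted p = 1.84e-04). *Parp9* and *Parp14* are known as interferon-responsive genes. *Parp14* was listed at no more than 0.4 in any DKSFM library and passed the filter only through the KSFM-Ca2+ libraries, so its lines had to differ to some degree, and without it 12 of 15 fell. With a pseudocount of 1 *Parp14* was at -1.66, and *Tnks* (-0.98) and *Parp16* (-0.74) were under 2-fold, as was *Parp16* with a pseudocount of 0.5 (-0.87), and both were under 2-fold with combined libraries alone. *Parp16* was also just under 2-fold with relative log expression size factors and without KSFM-Ca2+ replicate 1 or DKSFM replicate 2. *Parp6* was the gene that rose (0.74, limma adjusted p = 1.11e-05), and *Parp3* (-0.07) and *Parp8* (0.12) did not pass.

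The count of PARP genes that fell was 13 under the other scalings and pseudocounts and with no filter, 12 without the intensity trend, from 11 to 12 with a library left out, and 10 with combined libraries alone, where *Parp14* was not tested. *Parp4* (-0.31, limma adjusted p = 0.00505) and *Parp11* (-0.34, adjusted p = 0.00399) were the calls that were lost. *Parp4* did not pass without KSFM-Ca2+ replicate 1 (-0.27, limma adjusted p = 0.0210) or replicate 2 (-0.33, adjusted p = 0.0131), without DKSFM replicate 1 (-0.29, adjusted p = 0.0220) or replicate 2 (-0.29, adjusted p = 0.0189), or with combined libraries alone (-0.27, adjusted p = 0.0730). *Parp11* did not pass without KSFM-Ca2+ replicate 1 (-0.28, limma adjusted p = 0.0145) or replicate 3 (-0.34, adjusted p = 0.0149), without DKSFM replicate 2 (-0.35, adjusted p = 0.0143) or replicate 3 (-0.28, adjusted p = 0.0162), without the intensity trend (adjusted p = 0.0128), or with combined libraries alone (-0.34, adjusted p = 0.0127). The PARP gene that rose, *Parp6*, did so under every setting.

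Of 7 genes for enzymes that take ADP-ribose off proteins or break it down, 2 rose, 2 fell and 3 did not pass (35.5% of all tested genes rose and 37.0% fell). *Macrod1* (log2 fold change 0.44, limma adjusted p = 1.40e-04) and *Adprhl2* (0.24, adjusted p = 0.00115) rose, and *Nudt5* fell (-0.24, adjusted p = 0.00175). *Macrod2* fell too (-0.65, limma adjusted p = 0.00644), but this call was lost without any of KSFM-Ca2+ replicates 1 (-0.68, adjusted p = 0.0176), 2 (-0.59, adjusted p = 0.0320) or 3 (-0.68, adjusted p = 0.0143) and without DKSFM replicates 1 (-0.57, adjusted p = 0.0237) or 2 (-0.62, adjusted p = 0.0180). With a pseudocount of 1 *Macrod2* was at -0.37, and with combined libraries alone neither *Macrod2* (-0.59, limma adjusted p = 0.148) nor *Adprhl2* (0.23, adjusted p = 0.0238) passed. *Oard1* (0.12, limma adjusted p = 0.0542), *Nudt9* (0.07, adjusted p = 0.106) and *Parg* (-0.01, adjusted p = 0.822) did not pass, but *Oard1* passed without KSFM-Ca2+ replicate 2 (0.17, adjusted p = 0.00929) and with combined libraries alone (0.23, adjusted p = 0.00312).

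Of 7 listed genes for ecto-ADP-ribosyltransferases and the NAD hydrolase SARM1, 5 were at or under 0.1 in every library. *Art3*, a surface-anchored relative of the ADP-ribosyltransferases, was listed at 0.3, 0.3 and 0.2 in the KSFM-Ca2+ libraries, against 20.6, 18.3 and 16 in the DKSFM libraries. The lines were far apart, in the direction opposite to *Bst1*. *Art3* passed the filter only through the DKSFM libraries, so its lines had to differ to some degree. Its log2 fold change was 5.76 (SE 0.140, limma adjusted p = 1.03e-08), and 4.70 with a pseudocount of 0.5. *Sarm1* was listed at no more than 0.4 in any library and was not tested.

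Of 9 genes that dispose of nicotinamide or supply the methyl donor that NNMT uses, 6 were tested, with 3 higher and 3 lower (35.5% and 37.0% of all tested genes). Without *Pnp2* and *Aox1*, which were under 0.5 in at least 1 library, 2 were higher and 2 lower of 4. *Pnp*, a purine nucleoside phosphorylase that can also cleave nicotinamide riboside, stood at 21.3, 21.2 and 22.0 in the KSFM-Ca2+ libraries, against 74.6, 70.5 and 73.2 in the DKSFM libraries. The lines did not overlap, and it rose with a log2 fold change of 1.75 (SE 0.0394, limma adjusted p = 6.88e-09). Its paralog *Pnp2*, which may share reads with it, was listed at no more than 0.7 in any library. *Pnp2* passed the filter only through the DKSFM libraries, so its lines had to differ to some degree. It was 1.09 higher in DKSFM cells (limma adjusted p = 0.00382), a call lost without KSFM-Ca2+ replicate 1 (1.10, adjusted p = 0.0122) or replicate 2 (1.04, adjusted p = 0.0160) and without DKSFM replicate 3 (0.95, adjusted p = 0.0131). With a pseudocount of 1 *Pnp2* was 0.38 higher.

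*Aox1*, which oxidises methylated nicotinamide, fell from 1.99 ± 0.174 to 0.557 ± 0.207 (SD, n = 3 each; log2 fold change -1.72, limma adjusted p = 3.60e-04). Its KSFM-Ca2+ libraries were enough to meet the filter, and 1 DKSFM library was under it. *Aox1* was at -0.95 with a pseudocount of 1, and with combined libraries alone it did not pass (-1.57, limma adjusted p = 0.0225). The genes of methyl donor supply were highly covered, *Mat2a* at 371 and 326, *Mat2b* at 107 and 166 and *Ahcy* at 72.9 and 49.7 in KSFM-Ca2+ and DKSFM cells. *Mat2a* fell (log2 fold change -0.19, limma adjusted p = 8.31e-04), *Mat2b* rose (0.64, adjusted p = 2.09e-06) and *Ahcy* fell (-0.55, adjusted p = 6.01e-06).

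Of 8 other ectonucleotidases, 3 were tested, and the ATP-degrading *Entpd1* was listed at 0 in every library. *Enpp1*, which cleaves nucleotides such as ATP and NAD outside the cell, stood at 18.0, 17.8 and 15.6 in the KSFM-Ca2+ libraries, against 4.72, 4.74 and 4.60 in the DKSFM libraries. It fell, like *Nt5e*, with no overlap and a log2 fold change of -1.84 (SE 0.0747, limma adjusted p = 1.34e-07). *Entpd2* and *Entpd3* were listed at no more than 1.5 in any library, and each passed the filter only through the line where it is high, so the lines had to differ to some degree. Their log2 fold changes were -1.69 (limma adjusted p = 3.37e-04) and 2.31 (adjusted p = 1.79e-04), and -0.71 and 0.92 with a pseudocount of 1.

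Of 10 genes that sense, carry or convert adenosine, the product of CD73, 5 were tested, with 3 higher and 2 lower, where 35.5% of all tested genes were higher and 37.0% lower. *Ada*, adenosine deaminase, stood at 34.7, 31.6 and 35.1 in the KSFM-Ca2+ libraries, against 4.93, 5.04 and 5.89 in the DKSFM libraries. It fell with no overlap and a log2 fold change of -2.66 (SE 0.0821, limma adjusted p = 3.37e-08). *Slc29a1*, the equilibrative nucleoside transporter ENT1, fell from 62.1 ± 5.75 to 24.0 ± 0.183 (-1.37, limma adjusted p = 3.60e-07), and *Adk*, adenosine kinase, rose from 123 ± 6.17 to 176 ± 4.59 (0.53, adjusted p = 6.96e-06).

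*Adora2b* was the only adenosine receptor gene tested and rose (log2 fold change 0.41, limma adjusted p = 7.85e-04). *Slc29a2* rose by 0.27 (limma adjusted p = 0.00726). The *Slc29a2* call was lost without KSFM-Ca2+ replicates 1 (0.29, limma adjusted p = 0.0130), 2 (0.23, adjusted p = 0.0305) or 3 (0.28, adjusted p = 0.0142), without DKSFM replicates 2 (0.25, adjusted p = 0.0227) or 3 (0.26, adjusted p = 0.0255), and with library totals (0.26, adjusted p = 0.0106) or quantile normalization (0.16, adjusted p = 0.0534). It was also lost with no filter (limma adjusted p = 0.0105) and with combined libraries alone (0.25, adjusted p = 0.0672). The calcium channel genes *Ryr1*, *Ryr2*, *Ryr3* and *Trpm2*, targets of the cyclic ADP-ribose and ADP-ribose that BST1 and CD38 can form, were listed at 0 in every library.

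**Figure D4:**
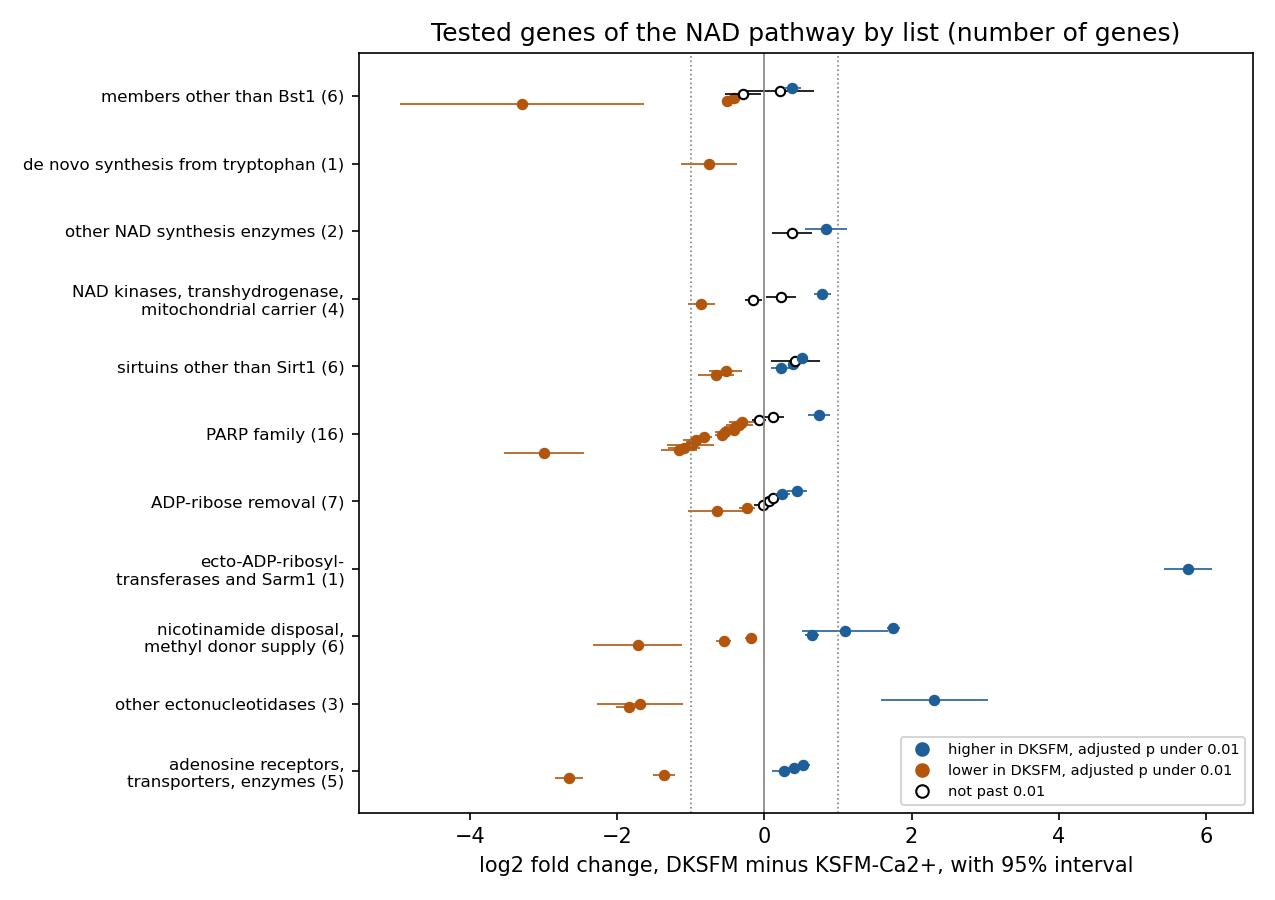
Log2 fold change (DKSFM minus KSFM-Ca2+) with its 95% interval for each tested gene, by list, with *Bst1* left out; filled dots passed an adjusted p of 0.01 in limma, open dots did not, and dotted lines mark 2-fold. In the PARP family 13 of 16 genes lie to the left and past the threshold. *Art3*, which passed the filter only through the DKSFM libraries, lies at 5.76.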

How the data were processed

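For each of 6 libraries the authors deposited coverage values of 24982 genes, which are mean reads per base, written to 1 decimal and not scaled between libraries. Per the submitters' processing notes and the study's methods, directional poly(A) libraries were read at 85 bases and aligned to mm10 with STAR under a strand setting, and the authors ran Salmon for quantification and DESeq2. How the coverage values were computed from the alignments, and whether by strand, is not given in the sources used here. Since coverage is not a count, limma was used.

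Scaling used trimmed means of M values without weights (trims of 30% and 5%, factors 0.991 to 1.01). Genes that reached 0.5 after scaling in 3 or more libraries (2 if a library was omitted) were kept. Then log2(value + 0.1) was fitted with an intensity trend, without covariates, and two-sided p-values received Benjamini-Hochberg adjustment over 12450 genes, with thresholds of 0.01 and 2-fold. Software was limma 3.58.1 in R 4.3.3, and figures were drawn with matplotlib 3.10.9 in Python 3.11.15. Positions came from GENCODE M21, which matched 12332 tested genes by symbol. The procedure was tested on simulated data. The files give the depth of each library only as total coverage, which allows no counting interval, and low values are limited by rounding. Replicate libraries of a line differed by a median absolute log2 ratio of 0.0472 to 0.0673 and held no duplicate.

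The 9 genes and the lists were chosen with earlier results of these data known. Named outside the 9 are list genes past the threshold and 2-fold with a mean of at least 1 in either line, up to 3 genes of a list with the highest mean, tested genes starting within 1 Mb of *Bst1*, and the 5 genes most like it. Other genes were named, because a count was small, after their values were seen. Alternatives were 3 other scalings, pseudocounts of 0.5 and 1, no filter, a filter on every library, no trend, a replicate block, each library left out, and the libraries marked as combined alone, a word not explained in the sources used here. 1 gene was left out of the marker lists and is not reported here.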

Additional observations from a re-analysis of the deposited data

How the results depend on the processing

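Of 206 values recomputed for 13 results under 16 alternatives, 196 kept their direction and side of the threshold, or moved little, and 0 reversed. The *Bst1* log2 fold change was -5.83 with quantile normalization, -5.56 with a pseudocount of 0.5 and -5.36 with a pseudocount of 1. *Nmnat1* passed with quantile normalization (-0.42, limma adjusted p = 0.00627; adjusted p from 0.0125 to 0.102 under its other alternatives). With a filter on every library, which tests fewer genes, 1032 genes were at least 2-fold higher, and *Nnmt* was not tested. *Nnmt* did not pass without the intensity trend (-3.30), and with each library left out in turn it ran from -4.20 to -2.85; the cause was not tested. *Naprt* and *Cd38* have no value to compare, and with combined libraries alone *Nnmt* was not tested and the lone KSFM-Ca2+ library was assumed to vary like the DKSFM ones.

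Of 1312 values for list counts and other named genes, 1224 stayed the same or moved little, 50 lost and 7 gained a call, and 0 reversed. Another 31 moved further, and these were list counts and fold changes of the genes most like *Bst1*. Same-numbered libraries of the lines did not deviate together (r = -0.0636, 0.0452 and -0.0246 for replicates 1, 2 and 3), so the numbers were not taken as pairs. With a replicate block, 4275 genes were higher and 4459 lower, beside 4419 and 4606 without it. Low values are limited by the rounding step of 0.1.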
